A study of Mus musculus with 9 samples.

Results

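The genes described here are the nuclear-encoded genes of oxidative phosphorylation, given as a list of 48 Ensembl mouse gene identifiers, of which 42 are among the 12188 genes measured in the dorsal telencephalon of mouse embryos. The other 6 identifiers are not analysed here. The list was drawn up to hold subunits of respiratory complexes I to V (the Nduf, Sdh, Uqcr, Cyc1, Cox and Atp5 genes) and Cycs. The genes were chosen by the knockout minus control difference of one of them, Cox5a, which was lower in Dicer knockouts in an earlier look at the same arrays, and because genes with high signal were lower more often there. The knockout against control values of these genes are therefore given as a description, with no test of the list, and nothing is supported with them.

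Oxidative phosphorylation is the last stage of aerobic energy production. Complexes I to IV of the inner mitochondrial membrane pass electrons from nutrients to oxygen and build up a proton gradient, cytochrome c (encoded by Cycs) carries electrons from complex III to complex IV, and complex V (ATP synthase, encoded in part by the Atp5 genes) uses the gradient to make ATP. Most subunits are encoded in the nucleus and imported into the mitochondrion, while a few are encoded by mitochondrial DNA. In the developing cortex, dividing progenitors are known to rely heavily on glycolysis, and neurons depend on oxidative phosphorylation.

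The study measured RNA from the dorsal telencephalon, the embryonic precursor of the cerebral cortex, at E13.5 on 1 array per embryo. The groups were 5 embryos with a conditional knockout of Dicer, the enzyme that cuts microRNA precursors into mature microRNAs (knockouts 5, 7, 9, 10 and 11, all labelled male), and 4 controls (controls 1 and 2 labelled female, controls 3 and 4 labelled male). All were of the C57Bl6/J strain. The labels name neither the Cre driver of the conditional knockout nor the alleles of the controls, whose sample titles begin with HTZ, and describe the knockout tissue as depleted of microRNAs. The embryos were partly littermates, without a statement of which ones shared a litter.

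The identifiers could not be joined to gene symbols: the RefSeq table used here holds 49997 genes, of which 0 carry an Ensembl identifier. The genes below are therefore described together and by their values, the label of the list could not be checked gene by gene, and values are not split by complex. The level of Dicer1 and of marker genes of the tissue is not reported for the same reason. Over all 12188 genes, control 4 stood apart, at a root mean square distance of 0.397 log2 units from the mean of controls 1 to 3, where each of controls 1 to 3 lay 0.177 to 0.216 from the mean of its other controls. Over the 42 oxidative phosphorylation genes its distance was 0.131, beside 0.0868 to 0.125 for controls 1 to 3. Among the knockouts, knockout 5 lay farthest from the mean of the others, at 0.274 over all genes and 0.330 over the 42 genes, beside 0.166 to 0.213 and 0.141 to 0.202 for the other knockouts.

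Nearly all of the 42 genes gave a high signal. Their mean log2 values over the 9 arrays ran from 4.86 to 13.3, with a median of 11.05 and quartiles of 10.5 and 11.6. Of the 42 genes, 40 were in the highest of 10 equal classes of mean signal, which begins at 10.01, and so also in the highest of 4 equal classes, which begins at 8.93. The other 2 had mean values of 8.68 and 4.86, and the dimmer of them ranked 10665th of 12188 genes. The brightest ranked 16th. A signal depends on the probes as well as on the RNA, so these values place the genes among others on the array and do not order them by amount of RNA.

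Most of the 42 genes had lower values in the knockouts than in the controls, and none of the group was called higher. The median over the 42 genes was 10.68, 11.02, 11.05, 10.86 and 11.05 log2 units in knockouts 5, 7, 9, 10 and 11, against 11.35, 11.40, 11.34 and 11.34 in controls 1 to 4. Every knockout lay below every control, and the controls were close together. The group means of this median were 10.93 ± 0.16 (SD, n = 5) in the knockouts and 11.36 ± 0.03 (SD, n = 4) in the controls. The tissue was measured in bulk, so fewer cells with high levels of these RNAs and less of these RNAs per cell cannot be told apart.

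Set against the mean of the controls gene by gene, the median deviation of the 42 genes was -0.67 log2 units in knockout 5, -0.29 in knockout 7, -0.28 in knockout 9, -0.48 in knockout 10 and -0.36 in knockout 11. On the scale of the deposited values this is 62.9%, 81.8%, 82.1%, 71.6% and 78.1% of the control level. Between 38 and 41 of the 42 genes lay below the control mean in each knockout, and between 35 and 38 lay below all 4 controls. In the controls the median deviation was 0.01, 0.03, -0.03 and -0.01 for controls 1 to 4. The other 3007 genes of the highest class of 4 had median deviations of -0.12, -0.04, -0.02, -0.01 and -0.04 in the knockouts in the same order, and of -0.01, -0.01, 0.02 and 0.01 in the controls.

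**Figure D1:**
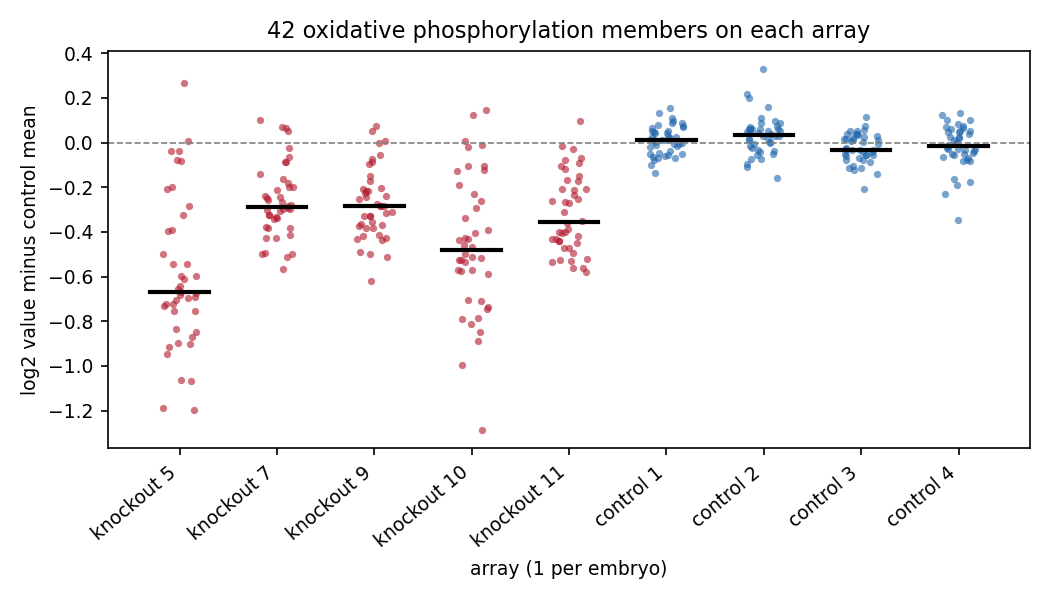
Log2 value of each of the 42 oxidative phosphorylation genes minus its mean over the 4 controls (vertical axis) on each of the 9 arrays, knockouts in red and controls in blue; black bars are medians. The medians of the 5 knockouts lie between -0.67 and -0.28 and those of the controls between -0.03 and 0.03, and the points spread widest in knockouts 5 and 10.

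The difference of knockout minus control had a median of -0.42 log2 units over the 42 genes (quartiles -0.55 and -0.25), with single genes running from -0.81 to 0.04. The standard errors of single genes had a median of 0.096. The median difference over all 12188 genes was -0.02, and it was -0.06 over the other 1179 genes of the highest class of 10, beside -0.42 for the 40 oxidative phosphorylation genes in that class. The difference was below 0 for 38 of the 42 genes, as for 52.8% of all genes and 56.3% of the highest class of 4. A limma fit over all genes, with calls made where the adjusted p (Benjamini-Hochberg) was under 0.05, had 32 of the 42 genes lower (76.2%) and 0 higher, where it called 13.6% of all genes lower and 11% higher. In the highest class of 4 it called 22.7% lower and 14.6% higher, and of the other genes in the highest class of 10 it called 23.0% lower, beside 77.5% of the 40 genes. The 32 became 9 with the labelled sex as a covariate, where 5.72% of all genes were called lower. They became 0 in the 7 male arrays alone, where 1.05% were, and the median difference was -0.40 in both. This contrast had a part in the choice of the list, so nothing is read from these counts.

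All 5 knockout values were below all 4 control values at 33 of the 42 genes (78.6%), which held for 14.2% of all genes and for 24.5% of the highest class of 4. No gene of the group had all knockouts above all controls, while 9.99% of all genes did. Of the 33 genes, 31 were also called lower. The 2 not called had differences of -0.15 and -0.14, and 1 called gene had overlapping groups with a difference of -0.33. Ranked by difference against the other genes in the same of 10 classes of signal, the 42 genes had a median percentile of 11.5. Of them, 18 lay in the lowest 10% of their class and 31 in the lowest 25%.

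**Figure D2:**
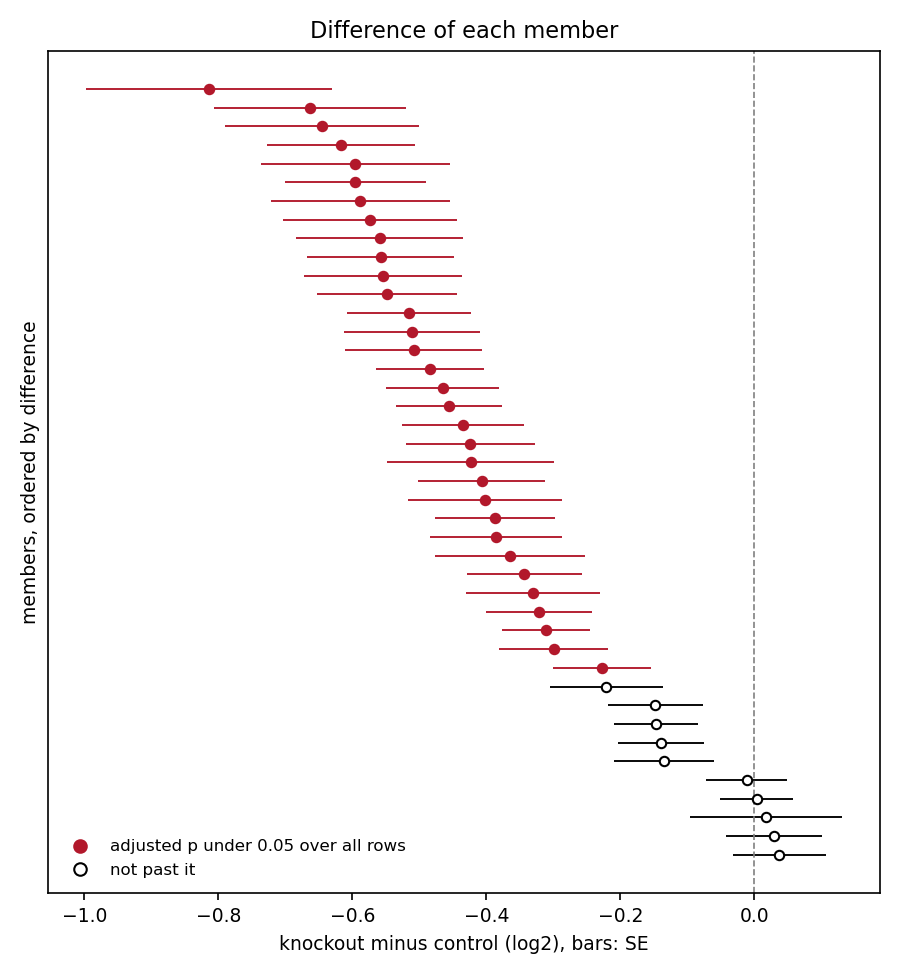
Knockout minus control difference in log2 units (horizontal axis, bars are standard errors from the limma fit) of the 42 genes, ordered from the lowest at the top; filled red points are the 32 genes past an adjusted p under 0.05 over all genes and open points the 10 others. The differences run from -0.81 to 0.04, and 5 genes lie within 0.05 of 0.

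The lowest difference was that of ENSMUSG00000016252_at. It had 10.18, 10.68, 10.63, 9.96 and 10.71 log2 units in knockouts 5, 7, 9, 10 and 11, against 11.34, 11.58, 11.17 and 10.90 in controls 1 to 4. The groups did not overlap, but control 4, at 10.90, was close to the highest knockout, and knockouts 5 and 10 were well below the other 3. Its means were 10.43 ± 0.34 (SD, n = 5) in the knockouts and 11.25 ± 0.29 (SD, n = 4) in the controls, a difference of -0.81 (SE 0.18), or 56.9% of the control level.

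ENSMUSG00000016427_at had the second lowest difference. Its values were 10.87, 11.54, 11.63, 11.35 and 11.59 log2 units in knockouts 5, 7, 9, 10 and 11, against 12.07, 12.13, 11.94 and 12.08 in controls 1 to 4. Here the controls were close together and knockout 5 was the lowest of all arrays. The means were 11.39 ± 0.31 (SD, n = 5) in the knockouts and 12.06 ± 0.08 (SD, n = 4) in the controls, a difference of -0.66 (SE 0.14), or 63.2% of the control level.

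Among the 42 genes, of which 40 were in the highest class of 10, the size of the difference did not follow the signal. Whether it would over a wider range of signal was not tested. The brighter 21 genes had a median difference of -0.41 and 17 of them were called lower, and the dimmer 21 had a median of -0.42 with 15 called lower. Spearman's rho between mean signal and difference was 0.02 across the 42 genes, which share the same 9 arrays. The gene with the mean value of 8.68, outside the highest class, lay between 8.18 and 8.66 in the knockouts, against 8.80 to 9.03 in the controls. Its groups did not overlap and its difference was -0.51.

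**Figure D3:**
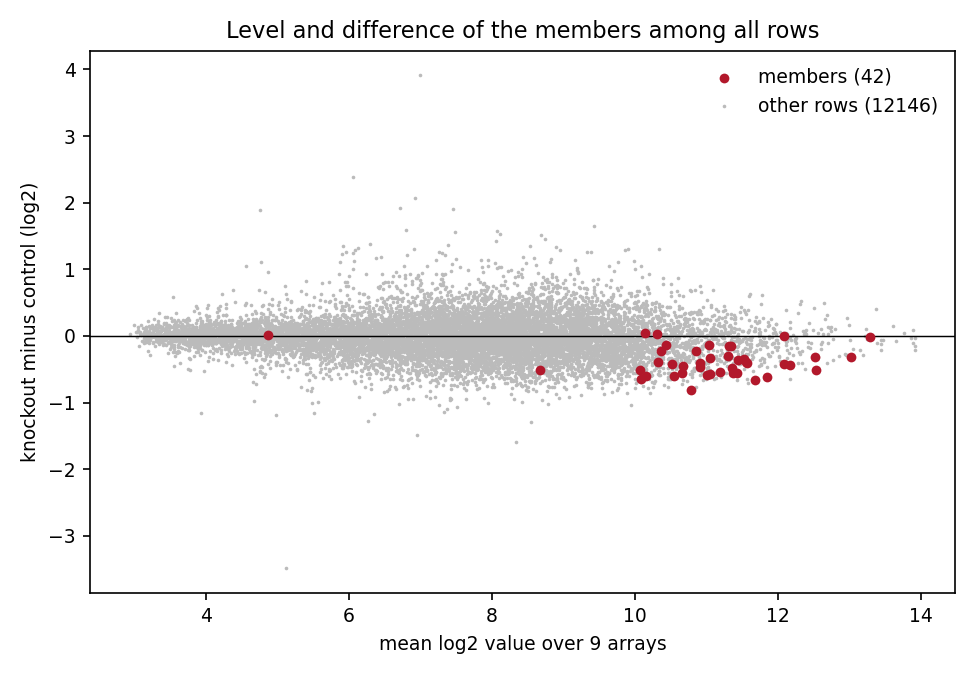
Mean log2 value over the 9 arrays (horizontal axis) and knockout minus control difference in log2 units (vertical axis) of the 42 oxidative phosphorylation genes (red) among all other genes (grey). Apart from 2 genes at 4.86 and 8.68, the red points lie at the bright end, and 38 of the 42 are below 0.

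The 10 genes that were not called made up 2 sets of 5. In 5 genes the difference lay between -0.22 and -0.13. In the other 5 it was at most 0.05 in size, a range that held 17.7% of all genes. These 5 include the brightest gene of the list, with 13.25, 13.39, 13.29, 13.28 and 13.19 in knockouts 5, 7, 9, 10 and 11, against 13.29, 13.35, 13.26 and 13.26 in controls 1 to 4. The groups overlapped, with a difference of -0.01 (SE 0.06).

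The highest difference was 0.04 (SE 0.07), at ENSMUSG00000025968_at, with 10.08, 10.06, 10.19, 10.24 and 10.22 in knockouts 5, 7, 9, 10 and 11, against 10.06, 10.05, 10.24 and 10.14 in controls 1 to 4. The next was 0.03 (SE 0.07), at ENSMUSG00000021577_at, with means of 10.32 ± 0.08 (SD, n = 5) in the knockouts and 10.29 ± 0.10 (SD, n = 4) in the controls. In both, the groups overlapped. The dimmest gene, at 4.87 ± 0.16 (SD, n = 5) in the knockouts and 4.85 ± 0.21 (SD, n = 4) in the controls, was also among these 5. Whether its low signal hides a change was not tested.

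**Figure D4:**
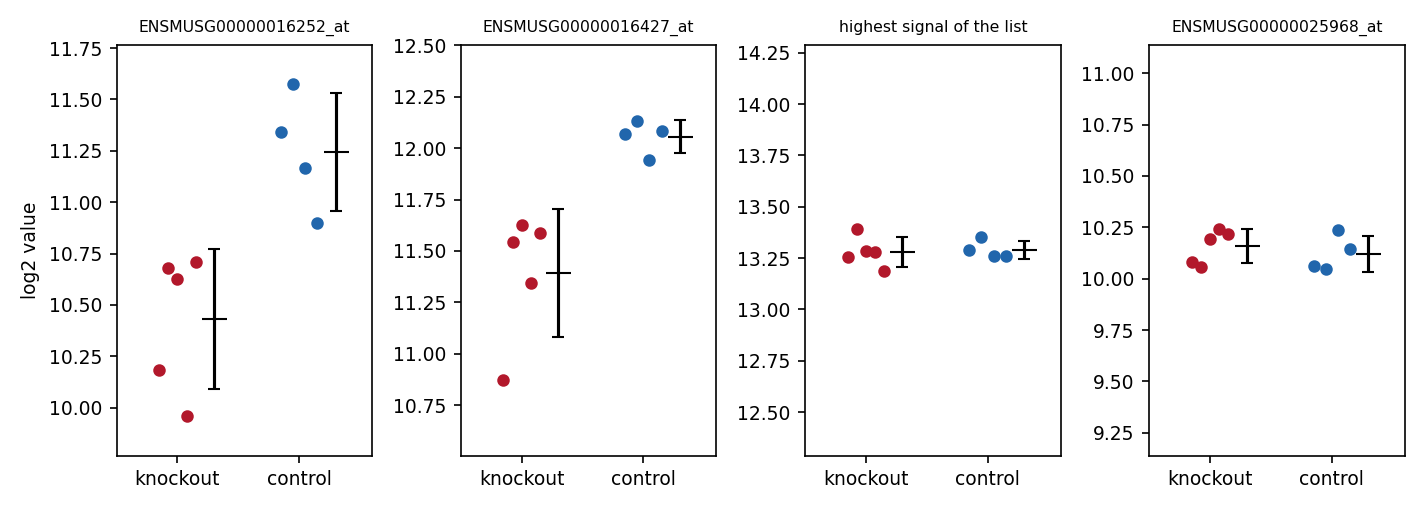
Log2 values (vertical axes, each spanning 2 log2 units) of 4 genes of the list on the 5 knockout arrays (red) and 4 control arrays (blue), with the mean and SD in black: the lowest and second lowest differences, the brightest gene and the highest difference. The groups are apart in the first 2 panels, with differences of -0.81 and -0.66, and overlap in the last 2.

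The knockouts differed from each other at these genes more than the controls did. The SD over the 5 knockouts had a median of 0.167 log2 units across the 42 genes, and the SD over the 4 controls had a median of 0.0719. For the other genes of the highest class of 4 the medians were 0.121 and 0.109. The SD was larger in the knockouts at 38 of the 42 genes (90.5%), and at 53.8% of those other genes. Without knockout 5 the median SD over the other 4 knockouts was 0.0957, closer to that of the controls, and this count was 28 of 42, beside 42.9% of the other bright genes. After quantile normalization the count was 32, and after subtraction of array medians it was 33.

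The genes of the list tended to be low or high together in a knockout, relative to the other knockouts. Knockout 5 was the lowest knockout at 30 of the 42 genes and knockout 10 at 8, while knockout 7 was the highest at 16 and knockout 9 at 12. Knockout 5 was also the lowest at 48.6% of the other genes of the highest class of 4, and its median over all genes was the lowest of the 9 arrays, at 7.61 against 7.67 to 7.75 for the other arrays. With the arrays rescaled, its median deviation over the list was -0.57 after subtraction of array medians and -0.50 after quantile normalization, still the lowest of the knockouts. Knockout 10, at -0.51 and -0.40, was the next in both. The array means over the list carried 53.8% of the variance among the 5 knockouts, beside 12.8% for the other bright genes, and 38.3% beside 1.39% without knockout 5. Among the 4 controls they carried 7.90%, beside 0.697%. Such a share is smaller for a larger set and where genes of a set move in opposite directions. The list and the other bright genes are therefore not compared like for like here.

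**Figure D5:**
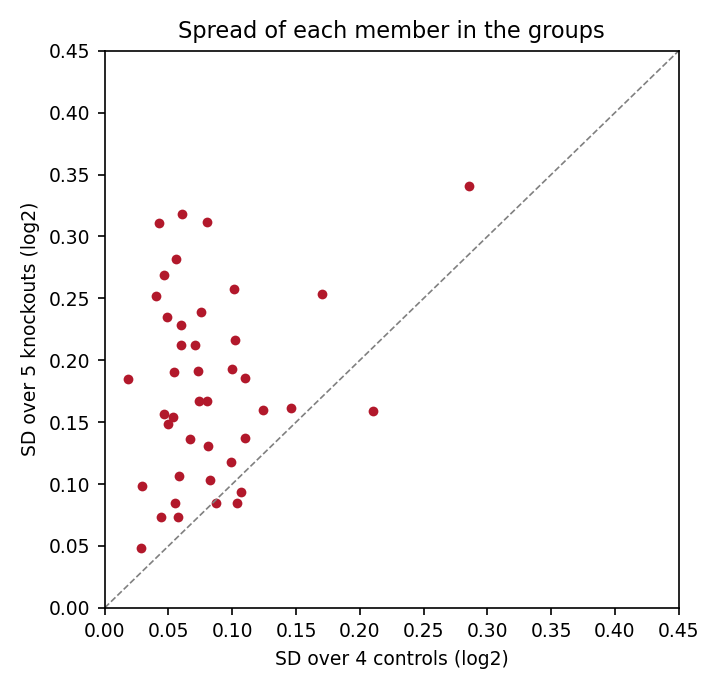
SD of each of the 42 genes over the 5 knockouts (vertical axis) and over the 4 controls (horizontal axis), both in log2 units; the dashed line marks equal values. Of the 42 points, 38 lie above the line, with medians of 0.167 for the knockouts (0.0957 without knockout 5) and 0.0719 for the controls.

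Because all knockouts were labelled male, a second limma fit took 3 groups and set the knockouts against the 2 controls labelled male. With no female knockout, it is the same comparison as the fit with the labelled sex as a covariate. They are not separate results. The median difference over the 42 genes was -0.40 (all genes -0.02), close to that against all 4 controls, and 40 of the 42 differences were below 0. All knockouts lay below both male controls at 35 of the 42 genes (83.3%), as they did at 18.9% of all genes and at 28.8% of the highest class of 4. The median standard error was 0.118, or 1.23 times that against all 4 controls. In this fit 9 of the 42 genes (21.4%) were called lower and 0 higher, where 5.72% of all genes were called lower and 4.82% higher (9.32% and 5.87% in the highest class of 4). A fit of the 7 male arrays alone called 0 of the 42 genes, with the same median difference of -0.40 and 1.05% of all genes called lower. The number of 9 calls changed with the arrays left out, and the share over all genes was not counted for these fits. There were 12 without knockout 5, 11 without knockout 7, 1 without knockout 9 and 0 without knockout 10 or knockout 11. Leaving out a control leaves a lone array in its group, and no counts are given there. These fits share the knockouts and control arrays with the first comparison and count as the same contrast.

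The difference between control males and control females had no part in the choice of the list. The median difference of the 42 genes was -0.03 log2 units (all genes 0.01), with 25 genes lower and 17 higher in the males. None of the 42 genes was called in the 3-group limma fit (0 of 42), where 0% of all genes were called, and the smallest adjusted p among the 42 was 0.676. At an unadjusted p under 0.05 there was 1 gene of 42 (2.38%), beside 7.13% of all genes and 5.97% of the highest class of 4. It was the dimmest of the list, with means of 4.68 in the control males and 5.03 in the control females. The median standard error of 0.141 in this comparison of 2 with 2 arrays limits it to larger differences. In simulated arrays the same comparison found 96 of 100 genes that had been given a shift of 2 log2 units. Another 100 genes were shifted by 1 log2 unit at the same time, which eases the adjusted p, so fewer changed genes could be missed. In the real arrays 0 of all 12188 genes were called, which cannot decide whether the sex labels are right. Without symbols, genes known to differ by sex could not be looked up, and whether they are among the 12188 was not tested. The results that use sex therefore rest on the labels alone.

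The promoters of the gene families named above were read from RefSeq (GRCm38.p6) by symbol, since 0 of the 42 identifiers matched. They show which letters these families share before their start sites and are not tied to single values above. Promoters, from 250 bases before to 50 after the start, were held for 72 protein-coding genes with Nduf, Sdh, Uqcr, Cox, Atp5 or Cycs symbols. They were held for 17492 protein-coding genes in all. Among the 72, assembly factors with Ndufaf symbols were left out, Cox7a2l was kept and Cyc1 was missing. Exact matches to 4 motifs were counted on both strands, per gene. A gene with more than 1 promoter counted once, if any of them matched. CCGGAAG, of ETS factors such as GABP, was in 17 of the 72 genes (23.6%) and in 12.9% of all 17492 genes. TGACGTCA, of CREB, was in 5 (6.94%) and in 2.54% of all. The motif of NRF1, a regulator of nuclear genes for mitochondria, was in 5 (6.94%) and in 1.47% of all in a form of 10 letters, and in 11 (15.3%) and 3.94% as GCATGCGC, which lies within it. That of YY1 was in 4 (5.56%), all Nduf genes, and in 1.06% of all in a form of 11 letters, and in 11 (15.3%) and 7.18% as AAGATGG, which lies within it. Both short forms were added after the promoters were seen. A match is a run of letters and not a measured site, and no match says only that these letters are not in the window.

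Of the genes that the list names outright, Cycs and Cox5a are shown, Cycs as the electron carrier between complexes and Cox5a, a nuclear subunit of complex IV, as the gene that led to the list. Capitals mark a motif match. The Cycs promoter (chr6:50566520-50566819, minus strand) holds TGACGTCA at bases 82 to 89 of the window and GCATGCGC at bases 191 to 198, and the Cox5a promoter (chr9:57520982-57521281, plus strand) holds no match to any of these forms.
Cycs: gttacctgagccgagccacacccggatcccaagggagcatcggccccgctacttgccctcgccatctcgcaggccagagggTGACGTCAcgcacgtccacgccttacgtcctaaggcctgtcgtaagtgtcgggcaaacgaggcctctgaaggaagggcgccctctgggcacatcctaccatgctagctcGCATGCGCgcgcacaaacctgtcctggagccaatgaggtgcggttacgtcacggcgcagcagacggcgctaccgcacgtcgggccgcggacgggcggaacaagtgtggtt
Cox5a: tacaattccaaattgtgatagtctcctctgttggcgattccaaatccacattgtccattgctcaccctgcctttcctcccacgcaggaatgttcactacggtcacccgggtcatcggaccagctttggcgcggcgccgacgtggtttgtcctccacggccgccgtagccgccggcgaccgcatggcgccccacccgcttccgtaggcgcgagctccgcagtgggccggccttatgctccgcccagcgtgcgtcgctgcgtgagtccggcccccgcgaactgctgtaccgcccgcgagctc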

How the data were processed

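RNA of 9 embryos was measured on 1-colour arrays with biotin-labelled RNA. The authors deposited log2 values, 1 per gene and array, for 12188 Ensembl identifiers. The submitters' processing notes name the affy package. Its version, and how background, normalization, summary per gene and filtering were handled, are not stated in the labels. Background signal tends to shrink changes of dim genes, and no detection calls were used. The scale was read from the values.

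The deposited values were fitted with limma 3.58.1 (R 4.3.3; lmFit and eBayes) over all genes, knockout against control over 9 arrays, and in 3 groups (knockout males, control males, control females). Calls are two-sided, at an adjusted p (Benjamini-Hochberg) under 0.05. The fits were tested on simulated data. Classes of signal are equal-sized by mean value. Precision is limited by the number of arrays, and p-values treat partly littermate embryos as independent. The genes were chosen with earlier results of these data known. With identifiers not joined to symbols, at most 2 identifiers at each end of the differences are printed, those farthest out. The 13 lists fixed by symbol (pathways and cell type markers) could not be used, and proteins and values by complex were not analysed here. Alternatives changed the scaling (quantile, array medians), the genes tested (dimmest 50% left out), the variance model (intensity trend, robust), the weights of arrays, the use of sex (covariate, or males only) and the arrays (each left out in turn). Figures were drawn with matplotlib 3.10.9.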

Additional observations from a re-analysis of the deposited data

Results flagged for a closer look

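The median of the 42 oxidative phosphorylation genes in control 2, at 11.40 log2 units, stood apart from those of the other controls, at 11.34 to 11.35. The gap was 0.878 of the range of the 4 controls, past Dixon's limit for a group of this size. Of 14 such tests (7 values in each of 2 groups) this 1 passed, and chance flags about 1 in 20 groups. Control 2 was 0.03 above the control mean in its median deviation, a small distance beside the -0.67 to -0.28 of the knockouts.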

How the results depend on the processing

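The number of the 42 genes below 0 was 37 to 40 under every alternative run that tested all 42, and 38 of 41 with the dimmest 50% of genes left out. The median difference was -0.32 after quantile normalization, -0.39 after subtraction of array medians, and -0.46 to -0.33 with each array left out in turn. The number called lower, 32, was 9 with sex as a covariate, where 5.72% of all genes were called lower. It was 0 in the 7 males alone, where 1.05% were. Both had a median of -0.40, and the cause of the lower counts was not tested. Under the other alternatives that kept all arrays the number was 28 to 33, where 12.3% to 23.2% of the genes tested were called lower. With each array left out it was 25 to 31, where 9.04% to 14.6% were. With knockout 7 and control 4 both left out, an alternative chosen after seeing the data, it was 26, where 14.8% were. ENSMUSG00000016252_at and ENSMUSG00000016427_at kept their calls in every alternative except these with sex (adjusted p in limma 0.0919 and 0.0631 as a covariate, 0.129 and 0.101 in males alone). Against control males the 9 called genes became 20 with the dimmest 50% left out and 1 with array weights. There were 12 without knockout 5, 11 without knockout 7, 1 without knockout 9 and 0 without knockout 10 or knockout 11. The share over all genes was not counted for these alternatives, and the cause was not tested. Leaving out a control leaves a lone array in its group, assumed to vary like the other groups. No counts against control males are given there. Between control males and females 0 genes of the list were called under every alternative run that kept all controls. Calls over all genes were not counted for these alternatives. No paired analysis was possible because the groups share no replicate numbers and litters are not assigned to embryos. No detection calls were used, so signal over background limits what the dimmest gene can show.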
